A study of Mus musculus with 12 samples.

Results

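The neuregulins and ErbB receptors comprise 7 genes, which were taken by symbol from the 24490 genes with a deposited value and described in all 12 samples. The members are 4 ligand genes, Nrg1, Nrg2, Nrg3 and Nrg4, and 3 receptor genes, Erbb2, Erbb3 and Erbb4, each matched by 1 row. Expression is given in FPKM, fragments per kilobase of transcript scaled to the mapped fragments of the sample. Levels are thus per length, and comparisons between genes depend on the gene model of each row. All samples were dorsal root ganglia (DRG) of adult male C57Bl/6 mice, taken from all levels of the spine, and there were 4 samples in each of 3 groups. Intact samples were whole ganglia frozen at once, with 1 mouse per sample. Unsorted samples, labelled as dissociated, were ganglia digested with enzymes and triturated, with 2 mice per sample, and so hold neurons together with glia and other cells. MACS-sorted samples, with 8 mice per sample, were the cells that passed a magnetic column after the non-neuronal cells had been tagged with antibodies, so that the neurons were never selected by a marker of their own. The series describes the samples of a group as biological replicates, and all mice of an unsorted or MACS-sorted sample were pooled before RNA extraction.

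Neuregulins are signalling proteins of the epidermal growth factor (EGF) family that bind ErbB3 or ErbB4 at the surface of the receiving cell. ErbB3 has a weak kinase and signals mainly when paired with ErbB2, which has an active kinase and no known ligand of its own. In peripheral nerve, Nrg1 on axons acts on ErbB2 and ErbB3 of Schwann cells and controls their survival, migration and myelination, and satellite glia, which wrap the neuronal cell bodies in the ganglion, are closely related to Schwann cells. The comparison of MACS-sorted with unsorted samples, the main one of the study, therefore sets a preparation of neurons beside one in which both sides of this pathway are present.

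Nrg1, Nrg2 and Nrg3 were still detected in MACS-sorted samples and Nrg4 was listed at 0 in every group, whereas the receptors were at or near 0. Summed over the ligand genes, intact samples held 20.2 to 35.9 FPKM, unsorted samples 35.4 to 43.4 FPKM and MACS-sorted samples 20.2 to 32.0 FPKM. Summed over the receptor genes, it was 10.6 to 14.3 FPKM in intact and 15.1 to 17.3 FPKM in unsorted samples, against 0, 0.0163, 0.267 and 1.05 FPKM in MACS-sorted replicates 1 to 4. Every MACS-sorted sample thus lay far below every other sample for the receptors, whereas the ranges of the ligands overlapped between MACS-sorted and intact samples. Because these are bulk samples, fewer cells of a type and less RNA per cell cannot be told apart.

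**Figure D1:**
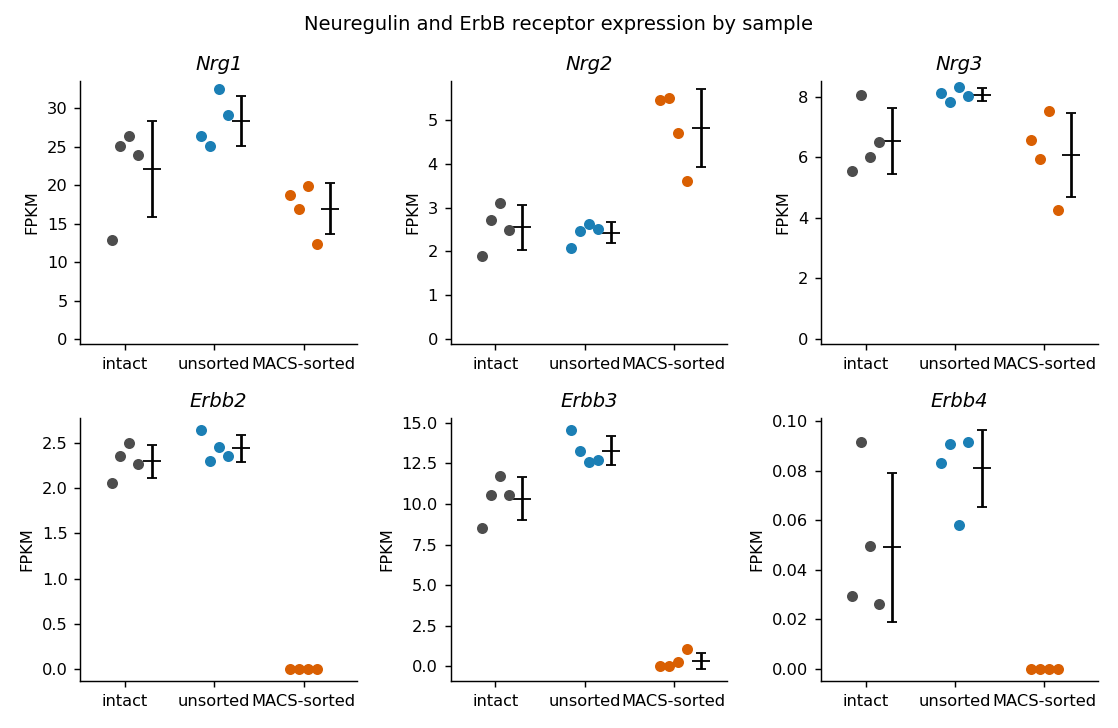
Expression of Nrg1, Nrg2, Nrg3, Erbb2, Erbb3 and Erbb4 in FPKM on the vertical axes, by group on the horizontal axes, with 1 panel per gene, a point for each sample and the mean with its SD over 4 samples beside the points (none drawn where all 4 values are listed at 0). All MACS-sorted values of Erbb2 and Erbb4 are listed at 0, as are all 12 values of Nrg4, which has no panel, while Nrg2 was higher in all 4 MACS-sorted samples than in any other sample.

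Across all genes, the markers of cell types moved with the sort, and so the labels were checked against them. Of 10 Schwann cell markers 9 were lower in MACS-sorted than in unsorted samples and 0 were higher at an adjusted p under 0.05 (limma, Benjamini-Hochberg), and of 8 satellite glia markers 8 were lower. Of 11 markers of small neurons 9 were higher, whereas of 10 markers of large neurons 10 were lower. Pan-neuronal markers were higher for 4 of 8 and lower for 2 of 8, fibroblast markers lower for 5 of 6 tested, and of 6 endothelial markers none passed. Of all 12038 genes tested, 18.8% were higher and 27.7% lower. Red blood cell genes reached summed levels of 1122, 1123, 5560 and 9038 FPKM across the MACS-sorted samples and at most 459 FPKM elsewhere, and skeletal muscle genes to 2853 FPKM in intact replicate 1 against 16.4 to 65.8 FPKM in the other intact samples. The steps between the lowest values put the depth at 13900000 to 19950000 fragments per sample, if fragments were 200 bases long.

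Nrg1, the neuregulin with the best known role in Schwann cells, was the most highly expressed member in each group. Intact replicates 1 to 4 had 12.8, 25.1, 26.3 and 23.9 FPKM, unsorted replicates 26.4, 25.1, 32.5 and 29.1 FPKM, and MACS-sorted replicates 18.8, 16.9, 19.8 and 12.3 FPKM. All 4 MACS-sorted values lay below all 4 unsorted values, whereas the intact values spanned both ranges because of replicate 1. The unsorted mean of 28.3 ± 3.27 FPKM (SD, n = 4) stood at the 86.2 percentile of the 17299 genes with a mean above 0 in that group. From unsorted to MACS-sorted samples Nrg1 fell, with a log2-fold change of -0.75 (SE 0.15) on the log2(FPKM + 0.1) scale and an adjusted p of 0.002327 (limma, Benjamini-Hochberg over 12038 genes). It remained lower at an adjusted p under 0.05 in 21 of 21 alternative settings, with log2-fold changes between -0.91 and -0.61. The row deposited for Nrg1 covers chromosome 8 of mm10 from 31818028 to 31918203 on the minus strand, 100176 bases, while the gene spans 1069479 bases in the GENCODE annotation of that build, where 11 of its 18 transcripts start more than 200 bases outside the deposited interval. The values of Nrg1 are those of this shorter model, and how much of its other isoforms they hold was not tested.

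Nrg2 was the only member with a higher level in MACS-sorted samples. This gene for a ligand of ErbB3 and ErbB4 is found on the minus strand of chromosome 18 at 36017658 to 36197160 (mm10). The levels in replicates 1 to 4 were 1.88, 2.72, 3.11 and 2.49 FPKM for intact ganglia, 2.08, 2.47, 2.63 and 2.52 FPKM for unsorted cells, and 5.44, 5.49, 4.70 and 3.60 FPKM for MACS-sorted cells. The 4 MACS-sorted values exceeded all 8 other values, and the intact and unsorted values overlapped. Nrg2 rose from unsorted to MACS-sorted samples with a log2-fold change of 0.95 (SE 0.16, adjusted p = 0.000803, limma) and stood 0.89 (SE 0.19) above intact samples on the same scale (adjusted p = 0.005892, limma). In 20 of 20 alternative settings it remained higher than in unsorted samples at an adjusted p under 0.05, and scaled to the pan-neuronal markers its log2-fold change was 0.79.

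Nrg3, a ligand of ErbB4, has its locus on the minus strand of chromosome 14 at 38368951 to 39473088 (mm10) and was the second most abundant neuregulin in every group by its mean. Its intact values were 5.55, 8.05, 6.01 and 6.52 FPKM, its unsorted values 8.11, 7.81, 8.31 and 8.03 FPKM, and its MACS-sorted values 6.55, 5.94, 7.53 and 4.26 FPKM. All MACS-sorted values lay below the unsorted ones, with a gap of less than 0.3 FPKM between the nearest of them, and they overlapped with the intact values. The log2-fold change of -0.43 (SE 0.15) from unsorted to MACS-sorted samples passed the test narrowly at an adjusted p of 0.04255 (limma). It passed in only 11 of 21 alternative settings, with an adjusted p of up to 0.197, and leaving out MACS-sorted replicate 2 or any 1 of the 4 unsorted samples ended the call, with adjusted p-values of 0.0707 to 0.0923 (limma).

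Nrg4, which encodes a ligand of ErbB4, was listed at 0 in all 12 samples. The gene model runs along the minus strand of chromosome 9 at 55220222 to 55283625 (mm10), and its exons share 202 bases with those of Fbxo22 on the opposite strand. Genes that most cells use, such as Ap1b1 and Trmt112, are also listed at 0 in all 4 unsorted samples, so that a 0 in these values can be a failed estimate. Nothing further was drawn from Nrg4.

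The makeup of the neuregulins was described by shares, without a test. Nrg1 made up 63.3 to 74.3% of the summed neuregulin FPKM of intact ganglia, 71.0 to 74.8% of that of unsorted cells and 59.7 to 61.8% of that of MACS-sorted cells. Its share in MACS-sorted samples was thus below that in every other sample, by a small margin in the case of intact replicate 1. The share of Nrg2 was lowest in unsorted samples, at 5.68 to 6.97%, with 7.56 to 9.30% in intact and 14.7 to 19.4% in MACS-sorted samples, and these 3 ranges did not overlap. Nrg3 took 19.1 to 22.2%, 17.0 to 27.4% and 21.0 to 23.5% of the sum in the same order, and its ranges overlapped throughout. Nrg1 was 10.2 to 12.7 times as high as Nrg2 in unsorted samples and 3.08 to 4.22 times as high in MACS-sorted samples. These shares and ratios hold for the shorter gene model of Nrg1, and how its other isoforms would change them was not tested.

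**Figure D2:**
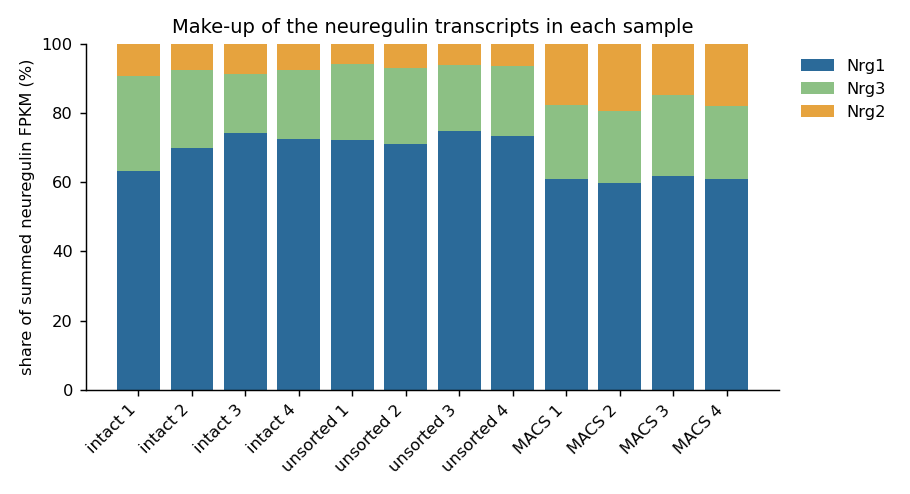
Percent of the summed neuregulin FPKM taken by Nrg1, Nrg2 and Nrg3 (vertical axis) in each of the 12 samples (horizontal axis), as stacked bars that begin at 0. Nrg2 holds 14.7 to 19.4% in the 4 MACS-sorted samples and no more than 9.30% in any other sample, while Nrg1 holds most of the sum in every sample. The values of Nrg1 are those of a gene model shorter than the annotated gene.

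Erbb3, the receptor that binds neuregulins in Schwann cells, maps to the minus strand of chromosome 10 at 128569368 to 128589501 (mm10). It measured 8.51, 10.6, 11.7 and 10.6 FPKM in the intact ganglia, 14.6, 13.3, 12.6 and 12.7 FPKM after dissociation, and 0, 0.0163, 0.267 and 1.05 FPKM after MACS (replicates 1 to 4). Every MACS-sorted value was below 1.1 FPKM, and each was below all values of the other groups. At the estimated depths these values stand for about 0, 1, 18 and 60 fragments in MACS-sorted samples, against 786 to 989 fragments in unsorted samples. Erbb3 fell from unsorted to MACS-sorted samples with a log2-fold change of -5.66 (SE 0.67, adjusted p = 0.0001054, limma), and the MACS-sorted mean was 2.52% of the unsorted mean. Without MACS-sorted replicate 4 the log2-fold change was -6.36, and without replicates 3 and 4 it was -6.95. Erbb3 reached the mean of 1 FPKM required for testing only through the unsorted samples. Where all genes were tested whatever their level, the adjusted p was 0.000201 (limma).

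MACS-sorted replicate 4 and, after it, replicate 3 had the highest Erbb3 and also the highest sums of Schwann cell and satellite glia markers. Single markers could differ, as Slc1a3 was lowest in replicate 3 and S100b was higher in replicate 1 than in replicate 3. Sox10, a transcription factor of Schwann cells and satellite glia, had 0.258, 0.149, 0.361 and 2.32 FPKM in MACS-sorted samples against 23.3 to 28.7 FPKM in unsorted samples. The 10 Schwann cell markers had summed levels of 2406 to 3690 FPKM in unsorted samples and of 625, 546, 643 and 1270 FPKM in MACS-sorted samples. Replicate 4 was the highest in this sum as it was in Erbb3. The same held for the 8 satellite glia markers, with sums of 2165 to 2730 FPKM in unsorted and of 118, 89.9, 128 and 196 FPKM in MACS-sorted samples. Glul, with 104, 82.3, 105 and 111 FPKM by replicate, made up most of the latter sums. The order was not particular to glia. Fibroblast markers summed to 7.62, 8.01, 13.9 and 32.4 FPKM, and red blood cell genes likewise peaked in replicate 4, then 3. Endothelial and macrophage sums peaked in replicate 4 with replicate 1 next. Small neuron and pan-neuronal sums were lowest in replicate 4. None of the Schwann cell and satellite glia markers was listed at 0 in all MACS-sorted samples. By their means, MACS-sorted samples kept a median of 1.38% of the unsorted level over the satellite glia markers, from 0.580% for Kcnj10 to 67.0% for Glul, and a median of 7.59% over the Schwann cell markers, from 2.96% for Sox10 to 55.6% for Mbp. The value of 2.52% for Erbb3 stands within the range of the satellite glia markers and below that of the Schwann cell markers. It also stands within the range of the fibroblast markers, 0 to 67.45% with a median of 3.76%. The same holds for the range of 3 macrophage markers, 2.29 to 27.9%. These percentages rest largely on MACS-sorted replicate 4, without which Erbb3 was at 0.711%, the satellite glia markers at a median of 0.611% (0.363 to 64.7%) and the Schwann cell markers at a median of 2.87% (0.981 to 49.8%), and the part of the remaining glia in the remaining Erbb3 was not tested.

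**Figure D3:**
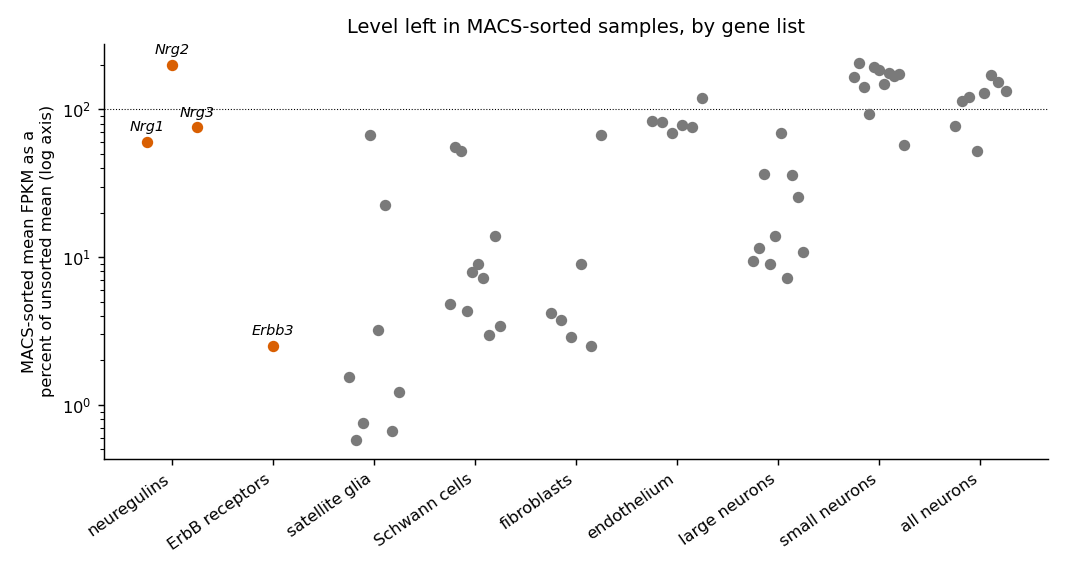
MACS-sorted mean as a percent of the unsorted mean (vertical axis, log scale) for the members and for each marker of the cell types named on the horizontal axis, 1 point per gene, with a dotted line at 100%. Erbb3, at 2.52%, lies within the spans of the satellite glia and fibroblast markers and below all Schwann cell markers. Nrg1, Nrg2 and Nrg3 lie far above it, within the span of the small neuron markers. Nrg1 and Nrg3 also lie within the span of the pan-neuronal markers, and Nrg2 lies above it. Nrg1 also lies within the spans of the large neuron, satellite glia and fibroblast markers, and Nrg3 within that of the endothelial markers. Genes listed at 0 in MACS-sorted samples, Erbb2 and the fibroblast marker Dpt, have no place on a log axis and are not drawn, nor are Erbb4 and Nrg4.

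Erbb2, the kinase partner of ErbB3, was detected in intact and unsorted samples at similar levels and listed at 0 in all 4 MACS-sorted samples. The intact ganglia had 2.06, 2.35, 2.51 and 2.27 FPKM and the unsorted cells 2.65, 2.31, 2.46 and 2.36 FPKM, values that overlap. No fold change is given against values listed at 0. The difference on the log2(FPKM + 0.1) scale had an adjusted p of 6.006e-06 against unsorted samples and of 2.787e-05 against intact samples (limma). Both p-values rest on the 0.1 added to values listed at 0, which have no spread. Erbb2 also reached the mean of 1 FPKM required for testing only through the other group. Nothing is therefore read from these p-values. With a gene model of 4998 bases, 1 fragment would have been 0.0118 to 0.0150 FPKM in MACS-sorted samples, and the unsorted values correspond to about 183 to 226 fragments. A 0 in all MACS-sorted samples was rare at such a level, since it was found for 23 of the 10792 genes with an unsorted mean of at least 2 FPKM, or 0.213%. Whether the 4 values of Erbb2 are failed estimates was not tested. The gene model runs along the plus strand of chromosome 11 at 98412484 to 98437716 (mm10), and 9 exonic bases are shared with Mien1 on the opposite strand. Mien1 was at 77.8 to 127 FPKM in intact, 76.5 to 82.2 FPKM in unsorted and 79.3 to 84.4 FPKM in MACS-sorted samples.

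Erbb4, the receptor that binds all neuregulins, was at very low values throughout. The intact values were 0.0295, 0.0914, 0.0496 and 0.0261 FPKM, the unsorted ones 0.0832, 0.0909, 0.0582 and 0.0914 FPKM, and the 4 MACS-sorted ones are listed at 0. Its locus is on the minus strand of chromosome 1 at 68039966 to 69108059 (mm10). With a mean under 1 FPKM, Erbb4 and Nrg4 were tested in no comparison.

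Promoter sequences of RefSeq on GRCm38.p6, the assembly also called mm10, were matched for 4 of the 7 members, Erbb2, Erbb4, Nrg3 and Nrg4. Those of Erbb2 and Nrg3 are shown, 300 bases each around the start site and read in the direction of transcription, because they belong to a receptor listed at 0 and a ligand retained in MACS-sorted samples. The promoter of Erbb2 is chr11:98412234-98412533 on the plus strand and that of Nrg3 is chr14:39473039-39473338 on the minus strand. Capitals mark the letters CCAAT.
Erbb2: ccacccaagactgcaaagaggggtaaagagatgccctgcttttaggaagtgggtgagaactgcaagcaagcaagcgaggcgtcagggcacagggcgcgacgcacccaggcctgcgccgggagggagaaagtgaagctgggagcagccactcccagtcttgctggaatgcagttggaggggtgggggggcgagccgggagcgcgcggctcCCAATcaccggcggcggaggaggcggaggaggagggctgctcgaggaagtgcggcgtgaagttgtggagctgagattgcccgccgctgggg
Nrg3: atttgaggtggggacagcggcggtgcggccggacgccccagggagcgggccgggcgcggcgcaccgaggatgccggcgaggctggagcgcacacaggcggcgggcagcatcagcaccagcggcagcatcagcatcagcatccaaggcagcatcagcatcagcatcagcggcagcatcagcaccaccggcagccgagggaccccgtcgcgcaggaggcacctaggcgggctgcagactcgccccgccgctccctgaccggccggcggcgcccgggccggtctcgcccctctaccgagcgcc
Both windows are rich in G and C, with 66.0% for Erbb2 and 74.3% for Nrg3 against a median of 52.7% over 32851 promoters, and hold 21 and 36 CG dinucleotides against a median of 7. Motifs were searched on both strands. The CCAAT box, spelled CCAAT, was found once in the window of Erbb2 and in none of the windows of Erbb4, Nrg3 and Nrg4, and 37.4% of all promoters hold it. The TATA box (TATAAA, in 13.6% of promoters), the GC box (GGGCGG, in 35.7%), the SOX core in its spellings ACAAAG (in 18.7%) and ACAATG (in 12.6%) and the E-box (CACGTG, in 7.15%) were in none of the 4 windows.

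The order of levels was read from the means, and neighbours were separated only where their samples did not overlap. In intact samples it was Nrg1, Erbb3, Nrg3, Nrg2, Erbb2 and Erbb4, and in unsorted samples it differed only in that Erbb2 and Nrg2 changed places. In both groups the values of Nrg2 and Erbb2 overlapped and every other pair of neighbours was separated. Among MACS-sorted samples the order was Nrg1, Nrg3, Nrg2 and Erbb3, with overlapping values of Nrg3 and Nrg2. Erbb3 moved from the 72.6 percentile of the genes above 0 in unsorted samples to the 20.6 percentile in MACS-sorted samples, and Nrg2 from the 39.9 to the 51.7 percentile.

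Counted over all members, 5 of the 7 were tested in the comparison of MACS-sorted with unsorted samples, of which Nrg2 was higher and Nrg1, Nrg3, Erbb2 and Erbb3 were lower at an adjusted p under 0.05 (limma). Of all 12038 genes tested, 46.5% passed, 18.8% as higher and 27.7% as lower, and the median log2-fold change was -0.04. Erbb2 and Erbb3 had a mean of at least 1 FPKM only through the unsorted samples, so that the count is no evidence about the members as a set. The samples of the compared groups did not overlap for any of the 5 genes, and neither did they for 46.2% of all genes tested, 18.4% above and 27.8% below. When the log2 ratio of means also had to exceed 0.5 and the higher mean 5 FPKM, 0 members were called higher and 2, Nrg1 and Erbb3, lower, against 8.15% and 12.5% of the genes tested. The p-values set the difference between groups against the spread between the samples of a group, each a pool of 2 or 8 mice. Unsorted replicates 1 and 2 were more alike than any other pair within a group. With these 2 averaged, Nrg3 had an adjusted p of 0.0807 (limma) and did not pass.

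The comparison of unsorted with intact samples addresses dissociation. Of the 7 members 5 were tested in it and 1 passed at an adjusted p under 0.05, a share near that of all 12392 genes tested, of which 22.5% passed, 14.8% as higher and 7.79% as lower. This was Erbb3, which was higher in all 4 unsorted samples, 12.6 to 14.6 FPKM, than in any intact sample, 8.51 to 11.7 FPKM, with a log2-fold change of 0.37 (SE 0.10, adjusted p = 0.03424, limma). Groups did not overlap for 32.8% of all genes tested, 20.8% with unsorted samples above and 12% with them below. Under the stricter criteria 0 members were called, against 4.29% of genes as higher and 2.76% as lower. The call of Erbb3 ended in 11 of 19 alternative settings, among them those without any 1 of the 4 unsorted samples or without intact replicate 2 or 4, where the adjusted p was 0.0601 to 0.0949 (limma). Satellite glia markers moved in the same direction, with 5 of 8 higher and 0 lower in unsorted samples, whereas of the 10 Schwann cell markers none passed in either direction. This was not particular to glia, as 6 of 6 endothelial, 8 of 10 large neuron and 4 of 8 pan-neuronal markers were also higher. Of the markers tested, 6 of 7 for fibroblasts and 4 of 5 for macrophages were lower. The part of the cell mixture in the difference of Erbb3 was not tested.

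The other tested members did not pass in this comparison. Erbb2 had a log2-fold change of 0.09 (SE 0.10) and Nrg2 of -0.06 (SE 0.16), the latter with either sign under the alternatives. Nrg3 had 0.31 (SE 0.11) with an adjusted p of 0.07078 (limma). Nrg1 had 0.41 (SE 0.22) with an adjusted p of 0.201, which became 0.16 with an adjusted p of 0.172 (limma) without intact replicate 1, the sample with the muscle genes.

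Because Erbb2 and Erbb3 form the receptor of Schwann cells together, their ratio was compared as well. Erbb3 was 4.14 to 4.67 times as high as Erbb2 in intact and 5.11 to 5.76 times as high in unsorted samples, so that the 4 unsorted ratios all exceeded the intact ones. The mean log2 ratio, with 0.1 FPKM added to each gene, was 2.12 ± 0.08 in intact and 2.40 ± 0.07 in unsorted samples (SD, n = 4), a difference of 0.28 with a p of 0.0286 in an exact two-sided permutation test, the smallest that 4 samples against 4 allow. Adjusted over the 3 comparisons it was 0.0857, which does not pass. It could have passed only if a comparison with MACS-sorted samples had also reached the smallest p. No conclusion is therefore drawn from the adjusted value. In MACS-sorted samples the ratio rests on the added constant, as Erbb2 is listed at 0, and ranged from 0 to 3.53 on the log2 scale.

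Over both steps, from intact to MACS-sorted samples, 3 of the 5 members tested passed at an adjusted p under 0.05, and 34.8% of the 12234 genes tested did, 14.1% as higher and 20.6% as lower. These were Nrg2 as higher and Erbb2 and Erbb3 as lower, the last with a log2-fold change of -5.29 (SE 0.68, adjusted p = 0.0002907, limma). Erbb2 and Erbb3 reached the mean of 1 FPKM required for testing only through the intact samples here, and the MACS-sorted values of Erbb2 can be failed estimates, so nothing is read from this count. In each of the 3 genes the groups did not overlap, as in 37.5% of all genes tested, 15.6% above and 21.9% below. Under the stricter criteria 0 members were higher and 1, Erbb3, lower, against 7.54% and 10.7% of genes. This comparison shares its samples with both others. Nrg1 and Nrg3 had log2-fold changes of -0.35 (adjusted p = 0.2974) and -0.12 (adjusted p = 0.6507) and overlapped with intact samples (limma). Without intact replicate 1 the value of Nrg1 was -0.59 with an adjusted p of 0.0170 (limma), so that 1 library decided this call.

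The genes with patterns most like those of the members were named for each tested member. Likeness was Pearson's r of log2(FPKM + 0.1) over the 12 samples, which fall into 3 groups of 4 and so mostly reflects the group means, among the 12248 genes that averaged 1 FPKM or more. The genes most like Nrg1 were Lmln (r = 0.988), Hspa12a, Mapk10, Pja2 and Hdlbp, and the means of Hspa12a were 102 FPKM for intact, 132 FPKM for unsorted and 84.5 FPKM for MACS-sorted samples. Those most like Nrg2 were Srpk1 (r = 0.974), Plxnc1, Actn1, Aff2 and Ralgds, and Plxnc1, a semaphorin receptor, was at 52.2, 48.3 and 108 FPKM in the same order. Nrg3 was most like Setd7 (r = 0.940), Cldn9, Kcnk4, Gpc5 and Kcnc4. No gene reached an r of 0.95 with Nrg3, whereas 478 genes did so with Erbb3 and 628 with Erbb2. Erbb3 was most like Sema3b (r = 0.998), Kirrel, Slc7a2, Adamts5 and Daam2, and Erbb2 most like Llgl1, Pcdhac1, Egfl8, Cmc1 and Nfkb2, all of them listed at 0 in every MACS-sorted sample as Erbb2 is. Between members r was 0.95 for Erbb2 with Erbb3, 0.84 for Nrg1 with Nrg3 and -0.93 for Nrg2 with Erbb3.

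Genes that act beside the members were described by lists, beginning with the enzymes that release the ligands. Of 9 genes of ligand processing, all tested, 0 were higher, 3 were lower and 6 did not pass in MACS-sorted against unsorted samples, with a median log2-fold change of -0.14. Of all genes tested, 18.8% were higher and 27.7% lower, so that the count of lower genes is near the share over all genes. Adam17, a metalloprotease that sheds EGF family ligands and neuregulins, was 7.12, 7.13, 5.18 and 7.22 FPKM in unsorted and 1.60, 1.35, 2.40 and 2.85 FPKM in MACS-sorted samples, and fell by 1.70 on the log2 scale (SE 0.23, adjusted p = 0.000230, limma). Adam10, a related sheddase, fell by 0.67 (SE 0.13, adjusted p = 0.002602, limma), and Aph1a, a subunit of gamma-secretase, by 0.60. Bace1, the protease known to cut Nrg1 in myelination, averaged 36.6 FPKM in unsorted and 35.2 FPKM in MACS-sorted samples, a log2-fold change of -0.07 (SE 0.11). The largest positive values of the list were 0.21 for Adam19 and 0.08 for Psen2, neither of which passed. From intact to unsorted samples 4 of these 9 genes were higher and 0 lower, with Ncstn, a subunit of gamma-secretase, at a log2-fold change of 0.45 (SE 0.06). In that comparison 14.8% of all genes tested were higher and 7.79% lower.

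Downstream of the receptors, calls were made in both directions. Of 23 adaptors and kinases, 4 were higher, 4 lower and 15 did not pass in MACS-sorted against unsorted samples, with a median log2-fold change of -0.03, while over all genes tested 18.8% were higher and 27.7% lower with a median of -0.04. Shc1, an adaptor that binds ErbB3, averaged 35.5 ± 1.72 FPKM in unsorted and 59.6 ± 5.90 FPKM in MACS-sorted samples (SD, n = 4) and rose by 0.74 on the log2 scale (SE 0.08, adjusted p = 6.6e-05, limma), followed by Hras, a GTPase of the pathway, with 0.46. Pik3r3, a regulatory subunit of PI3-kinase, fell by 0.63 (SE 0.08) and Pik3cb, a catalytic subunit, by 0.43. Of the kinases at the end of the cascade, Mapk3, Akt1 and Akt2 had values between -0.21 and 0.20, and none of these passed. From intact to unsorted samples 2 of the 23 were higher, Grb2 and Pik3cb, and 0 lower, beside 14.8% higher and 7.79% lower over all genes.

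Inhibitors of ErbB signalling formed a list of 17 genes, of which 15 were tested in MACS-sorted against unsorted samples. Of these 1 was higher, 7 were lower and 7 did not pass, with a median log2-fold change of -0.35, beside the same 18.8% higher and 27.7% lower over all genes. Lrig1, a membrane protein that promotes ErbB degradation, was 3.81 to 4.54 FPKM in unsorted and 1.03 to 1.74 FPKM in MACS-sorted samples and fell by 1.45 on the log2 scale (SE 0.18, adjusted p = 0.000150, limma). Spred1, which restrains the activation of Raf, fell by 1.23 (SE 0.11). Cblb, a ubiquitin ligase of receptor kinases, was the gene that rose, from a mean of 6.46 to 11.6 FPKM and with a log2-fold change of 0.83 (SE 0.11, adjusted p = 0.000182, limma). The next largest value, 0.21 for Spry2 (SE 0.19), did not pass. Rnf41, the ligase also called Nrdp1 that controls the level of ErbB3, had a value of 0.10 (SE 0.08) and did not pass. From intact to unsorted samples 3 of the 16 inhibitors tested were higher and 0 lower, beside 14.8% higher and 7.79% lower over all genes.

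Proteins that bind the receptors moved in both directions. Of 5 such genes 3 were higher, 1 was lower and 1 did not pass in MACS-sorted against unsorted samples, with a median log2-fold change of 0.30. Beside them, 18.8% of all genes tested were higher and 27.7% lower, and so few genes allow no reading of the list. Cd44, a membrane glycoprotein known to associate with ErbB2, was 64.0, 64.0, 58.3 and 64.2 FPKM in unsorted and 143, 125, 132 and 88.2 FPKM in MACS-sorted samples, with a log2-fold change of 0.94 (SE 0.13, adjusted p = 0.000352, limma). The chaperone genes Hsp90aa1 and Hsp90ab1 rose by 0.31 and 0.30, and the cochaperone Cdc37 had a value of 0.18 that did not pass. Erbb2ip, which encodes the ErbB2-binding scaffold Erbin, was 6.58, 6.19, 4.75 and 6.05 FPKM in unsorted and 2.53, 0.771, 2.07 and 2.85 FPKM in MACS-sorted samples, and fell by 1.60 on the log2 scale (SE 0.34, adjusted p = 0.003682, limma).

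**Figure D4:**
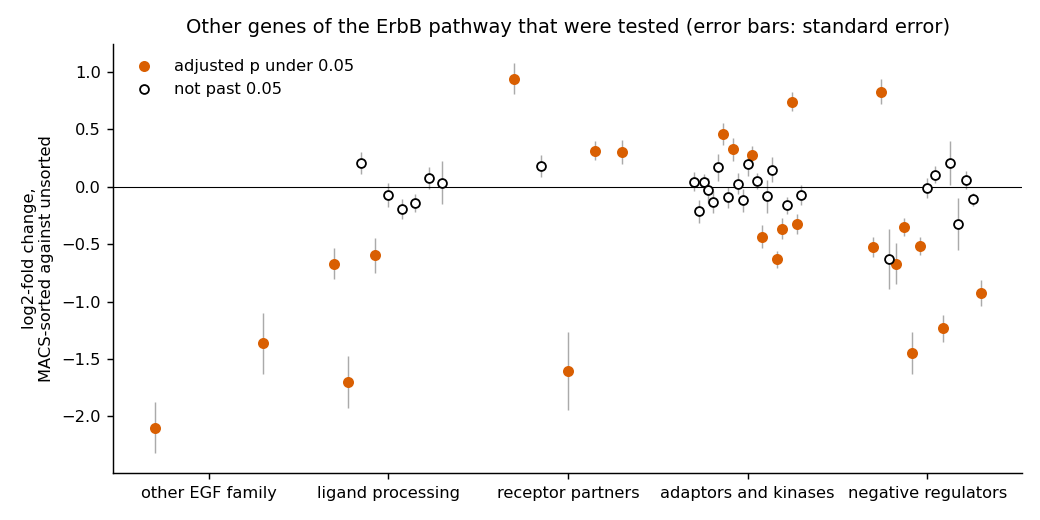
Log2-fold change from unsorted to MACS-sorted samples (vertical axis, log2(FPKM + 0.1) scale, error bars are SE) for each tested gene of the pathway lists, grouped by role along the horizontal axis, with filled points at an adjusted p under 0.05 (limma). Adam17, Lrig1, Spred1, Erbb2ip, Hbegf and Tgfa lie below -1, most adaptors and kinases lie within 0.5 of 0, and Cd44, Cblb and Shc1 are the highest.

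Egfr, the remaining receptor of the ErbB family, which is not a member here, was also lowest in MACS-sorted samples by its values. It was 1.34 to 1.65 FPKM in intact and 0.396 to 0.780 FPKM in unsorted samples, and the MACS-sorted values were 0, 0, 0.00982 and 0.0349 FPKM. The groups did not overlap. From intact to unsorted samples it fell by 1.26 on the log2 scale (SE 0.24, adjusted p = 0.008549, limma), and it was not tested against MACS-sorted samples because its mean was under 1 FPKM. Of 8 listed genes of the EGF family outside the members, Egfr included, 2 were tested in MACS-sorted against unsorted samples, and both were lower. Over all genes tested, 27.7% were lower, and 2 genes allow no reading of the family. Hbegf, a ligand of Egfr and ErbB4, was 4.10 to 5.19 FPKM in unsorted and 0.658 to 1.48 FPKM in MACS-sorted samples and fell by 2.1 on the log2 scale (SE 0.22, adjusted p = 5.3e-05, limma), and Tgfa, a ligand of Egfr, fell by 1.36 (SE 0.27, adjusted p = 0.002290, limma).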

How the data were processed

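Polyadenylated RNA of 12 DRG samples was sequenced, 4 each from intact, unsorted and MACS-sorted preparations, and every sample was used. The authors aligned reads to mm10 with TopHat2, merged lanes with SAMtools and estimated gene expression with Cufflinks 2.1.1. The deposited values are FPKM, already scaled to the mapped fragments of each sample, so that a gene taking a large share of fragments lowers all others. Whether fragments were assigned by strand is not given in the sources used here.

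Tests used log2(FPKM + 0.1) in limma 3.58.1 (R 4.3.3) with a trend of the prior variance, two-sided, and Benjamini-Hochberg adjustment over genes that averaged 1 FPKM or more in the 8 samples compared. CuffDiff, which the study used, needs aligned reads and was replaced. The stricter criteria, a log2 ratio of group means beyond 0.5 and a mean above 5 FPKM, are those of the study. Ratios of 2 genes were compared with exact permutation tests. The fit was tested on simulated data.

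The members and gene lists were chosen with earlier results of these data known. The text names the members, the genes with the 2 largest and 2 smallest log2-fold changes of a list from unsorted to MACS-sorted samples, defining markers, and the 5 genes most like each tested member. Aph1a, Bace1, Rnf41, Ncstn, Grb2, Mapk3, Akt1, Akt2, Egfr, and the genes listed at 0 beside Nrg4 were named after their values were seen. The results of some listed genes are not reported here, although they remain in all counts. The files give no depth, so it was inferred from steps between low values, of which 98.0 to 100% lay within 0.1 of a whole number of fragments, and no interval was drawn from it. Unsorted replicates 1 and 2 differed by 1.47 times the sampling noise over highly expressed genes, against 9.12 to 333 times in the 17 other pairs within groups. They were kept as 2 samples as labelled, and averaged in an alternative. Alternatives covered the pseudocount, filter, scaling, trend, replicate block and each sample left out in turn. Fits without MACS-sorted replicates 3 and 4 and scaled to pan-neuronal markers, and the percentages left in MACS-sorted samples without replicate 4, were added after the data were seen. Python 3.11.15 was used for descriptions.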

Additional observations from a re-analysis of the deposited data

How the results depend on the processing

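Alternatives left the direction of every tested member from unsorted to MACS-sorted samples as reported, while the number called changed with settings that move values near a threshold. Against unsorted samples, the members passing the 3 criteria were 2, with 1 at a log2 ratio limit of 1 and 4 at a limit of 1 FPKM for the higher group. From intact to unsorted samples the single called member, Erbb3, was lost, leaving 0, in the fit on all 12 samples (adjusted p = 0.706), under the replicate block (0.0795), quantile normalization (0.0653), removal of red blood cell genes with rescaling (0.132) and averaging of unsorted replicates 1 and 2 (0.0835; all limma). There, Nrg2 changed sign to 0.072 under quantile normalization and ranged from -0.19 to 0.043 with single samples left out. From intact to MACS-sorted samples, 1 member instead of 3 was called with a filter at a mean of 5 FPKM, and the members passing the 3 criteria, 1 in the report, were 2 under quantile normalization or without MACS-sorted replicates 3 and 4 and 3 at a limit of 1 FPKM. Nrg3 changed sign there to 0.064 under quantile normalization and ranged from -0.23 to 0.038 with single samples left out, the highest without MACS-sorted replicate 4. The cause was not tested, except that a stricter filter tests fewer genes.

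With single samples left out, the called members ranged from 4 to 5, 0 to 1 and 2 to 4, and those passing the 3 criteria from 2 to 3, 0 to 0 and 1 to 2, in MACS-sorted against unsorted, unsorted against intact and MACS-sorted against intact samples. The difference of the log2 ratio of Erbb3 to Erbb2 ranged from -1.70 to -0.52, 0.24 to 0.31 and -1.42 to -0.24 in the same order, with the lowest of both comparisons with MACS-sorted samples coming without MACS-sorted replicate 4 and that of unsorted against intact samples without intact replicate 1. With a pseudocount of 1 it was -1.70, 0.28 and -1.42 (exact permutation tests, adjusted p = 0.0286), and with 0.01 it changed sign to 0.79 and 1.07 for MACS-sorted against unsorted and intact samples, as Erbb2 is listed at 0.

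Replicate numbers did not pair the samples, since deviations from the group mean correlated at -0.14 to 0.07 between same-numbered samples. A block for them left 5 called members in MACS-sorted against unsorted and 3 in MACS-sorted against intact samples and changed no call other than that of Erbb3 above. Quantile normalization moved the median log2-fold change of all genes from -0.04 to 0.10 and scaling to pan-neuronal markers to -0.20. The depth of 13900000 to 19950000 fragments limits the values of Erbb3 in MACS-sorted samples and of Erbb4, which rest on few fragments.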

Other observations

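Further ligands of the EGF family were at low levels in all groups. Betacellulin (Btc), a ligand of Egfr and ErbB4, averaged 0.422 FPKM over intact, 0.289 FPKM over unsorted and 0.521 FPKM over MACS-sorted samples. The means of Areg were 0.217, 0.245 and 0.257 FPKM and those of Egf 0.367, 0.275 and 0.179 FPKM in the same order. Ereg was listed at 0 in every sample and Epgn in the 4 MACS-sorted samples. All of these means were under 1 FPKM, and none of these genes was tested.

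Of 16 sets of 4 samples examined for a sample far from the others, 0 passed Dixon's limit, including Nrg1 in intact samples, whose replicate 1 was the lowest at 12.8 FPKM. With 4 samples per set, this does not show that replicate 1 is like the others. Over highly expressed genes, intact replicate 1 differed from the other intact replicates by 302 to 333 times the sampling noise. Those replicates differed from each other by 9.12 to 16.4 times.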
